A study of Brachypodium distachyon with 20 samples.

Results

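The step from 2-cell and quadrant embryos to pro-embryos of *Brachypodium* is described here from 4 of the 20 RNA-seq libraries of the series. The pro-embryo libraries (PEM-1 and PEM-2, given as preembryo in the labels) were set against the libraries of 2-cell and quadrant embryos (TCQ-1 and TCQ-2). All 4 came from embryos of the ecotype Bd21, without mutation or transgene, from flowers that were emasculated and pollinated by hand on plants in long days. TCQ joins embryos of successive divisions in a single group, and each library holds whole embryos pooled after dissection, so differences between cells of an embryo or between embryos were not measured. The other 16 libraries were 2 each of 5 later embryo stages (transition, TRA, leaf early, LEE, leaf middle, LEM, leaf late, LEL, and mature, MAT), of early and late endosperm (EEN, LEN) and of seed coat (SEC). A gene was included if it was above 0 log2 CPM (1 CPM, with CPM the read count of a gene relative to the size of the library) in at least 2 of the 20 libraries, which held for 22902 of 23749 genes. The mRNA of these small samples was amplified before library preparation. The depth of each library is unknown, since no source read for this work states it, and no counting interval can be given.

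In a grass, the zygote divides into a small club-shaped pro-embryo. The shoot meristem, the root pole and the first leaf become visible only in the stages that follow. In *Arabidopsis*, early embryo domains are set out by homeodomain, NAC, GRAS, PLETHORA and zinc finger transcription factors, together with auxin, which PIN proteins carry between cells, and cytokinin.

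Transcript levels differed between the stages for 12197 genes (53.3% of those tested), of which 6565 were higher at PEM (28.7% of all genes tested) and 5632 were lower (24.6%). Organ boundary, leaf polarity and root pole genes were among those that rose, with the NAC gene CUC2 first of the 20 patterning and auxin transport genes, which was 4.11 log2 higher at PEM (SE 0.23, adjusted p = 8.1e-09 from limma). The stem cell regulator WUS and the zinc finger gene JKD fell, by 1.22 and 1.24 log2. In bulk embryos, fewer cells of a type and less RNA per cell cannot be told apart, and CPM values are relative to the library, not amounts per embryo. The fit was made with limma on the log2 CPM values of all 20 libraries in 10 groups, with Benjamini-Hochberg adjustment over the 22902 genes and a call at an adjusted p under 0.05. A permutation of 2 libraries against 2 cannot give a two-sided p below 0.333, so the calls rest on the spread shared across genes and groups.

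The difference between stages was large beside that between replicates. The median absolute difference of a gene was 0.57 log2 between the stage means, against 0.13 log2 between the PEM libraries and 0.15 log2 between the TCQ libraries. Both PEM libraries lay above both TCQ libraries for 9655 genes and below them for 8391, together 78.8% of those tested. With 2 libraries a side and no stage difference, a share of about 0.333 would separate in this way. The libraries overlapped for 4856 genes, of which 7 were called. Among the genes not called, 216 differed by at least 1 log2, a 2-fold change, and the smallest difference called was 0.19 log2. The median standard error of a difference was 0.21 log2.

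The quartiles of the difference over all genes were -0.49 and 0.64 log2, and its 1st and 99th percentiles were -2.62 and 2.67 log2. The median difference was 1.02 log2 among the genes called higher and -0.93 log2 among those called lower. A difference of at least 1 log2 was seen in 3362 higher and 2545 lower genes, one of at least 2 log2 in 702 and 605, and one of at least 4 log2 in 34 and 14. Of the called genes, 53.8% were higher at PEM, but this share depended on how the libraries were scaled to each other. It was 49.4% with the library medians set equal, 49.1% after quantile normalization and 44.8% with the antilogs scaled to equal sums. The median gene was 0.05 log2 higher at PEM as deposited and -0.02, -0.02 and -0.09 log2 under these scalings, so neither direction prevailed under all of them.

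**Figure D1:**
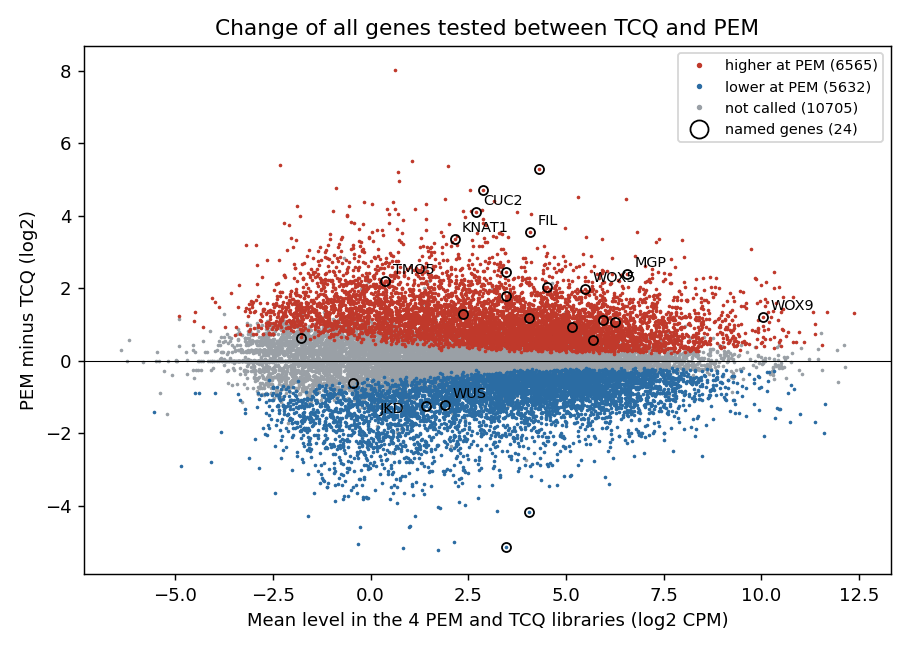
Difference of each of the 22902 genes (PEM minus TCQ, log2) against its mean level in the 4 libraries (log2 CPM), with 6565 genes called higher in red, 5632 called lower in blue, 10705 not called in grey and 24 named genes circled. Called genes lie on both sides of 0 at all levels, and CUC2, FIL and KNAT1 stand more than 3 log2 above 0.

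The share of genes called depended on their level. Among the 4664 genes with a mean under 0 log2 CPM over the 20 libraries, 17.6% were called higher and 20.0% lower, at a median standard error of 0.36 log2. Among the 366 genes with a mean of 8 log2 CPM or more, 42.6% were called higher at PEM and 23.2% lower. These shares hold for the values as deposited and were not counted by level under the other scalings. The median standard error was smaller in the classes above 0 log2 CPM, so a change of a given size was more readily called there.

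**Figure D2:**
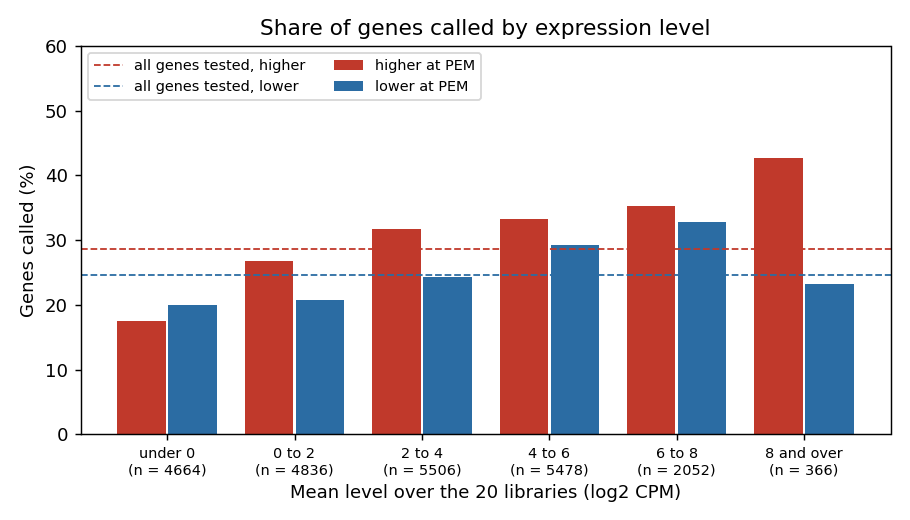
Percentage of genes called higher (red) and lower (blue) at PEM by mean level over the 20 libraries (log2 CPM), with the shares among all genes tested (28.7% and 24.6%) as dashed lines. The share called higher was 17.6% in the lowest class and 42.6% in the highest, with the values scaled as deposited. The share called lower was greatest, at 32.7%, from 6 to 8 log2 CPM.

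The genes with the most reads were partly exchanged between the stages, ranked by CPM, which is not corrected for gene length. Of the 100 genes with the highest mean at PEM, 59 were also among the 100 highest at TCQ, and of the 1000 highest 722 were shared. In the PEM list of 100, 61 genes were called higher and 6 lower at PEM. In the TCQ list, 20 were called higher and 31 lower. Over all genes tested these shares were 28.7% and 24.6%, and each list was picked by the stage mean that also enters the call, so a lean toward its own stage is built in. The genes found only in the PEM list had a median rank of 155 at TCQ, and those found only in the TCQ list a median rank of 142 at PEM, so most were not far below the first 100 at the other stage. In PEM, 737 and 743 genes held 50% of the summed CPM, against 866 and 888 genes in TCQ. Genes above 1 CPM numbered 18283 and 18303 in the PEM libraries, against 18132 and 18113 in the TCQ libraries.

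Of 20 patterning and auxin transport genes named in the study, 15 were called higher at PEM (28.7% of all genes tested were), 2 lower (24.6%) and 3 were not called. Their median difference was 1.24 log2, against 0.05 log2 for all genes tested. The study focused mainly on patterning genes whose *Arabidopsis* homologs are well known, while it surveyed expression alignments of these samples. The count is therefore not independent evidence of a direction. Except for PIN1a and PIN1b, the names are those of *Arabidopsis* genes, paired by the study with *Brachypodium* genes by best BLAST hit. The study states that orthology between the species is not simple. The roles given with the names are known from *Arabidopsis*.

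Of the 6 shoot meristem genes, 4 were higher, WUS was lower and STM was not called. CUC2 (Bradi1g41712.2), a NAC factor that sets the boundary between organs, was at 4.77 and 4.72 log2 CPM in the PEM libraries, against 0.58 and 0.71 in the TCQ libraries. The stages were far apart, and the difference of 4.11 log2 ranked 28 from the top among all genes tested. FIL (Bradi3g30410.1), a YABBY factor of the outer side of lateral organs, was at 6.02 and 5.69 log2 CPM in PEM, against 2.20 and 2.42 in TCQ, a difference of 3.54 log2 (SE 0.39, adjusted p = 2.9e-06 from limma). KNAT1 (Bradi1g10047.2), a KNOX homeodomain gene that keeps meristem cells undifferentiated, was at 3.83 and 3.82 log2 CPM in PEM, against 0.30 and 0.66 in TCQ. It was 3.34 log2 higher at PEM (SE 0.29, adjusted p = 2.9e-07). ZPR3 (Bradi4g42250.1) encodes a small zipper protein that inhibits HD-ZIP III factors. It was at 4.72 and 4.66 log2 CPM in PEM, against 2.17 and 2.33 in TCQ (difference 2.43, SE 0.40, adjusted p = 1.3e-04). In these 4 genes, the lower PEM library was above the higher TCQ library by more than 2 log2.

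WUS and STM did not share this rise. WUS (Bradi5g25113.1), which maintains shoot stem cells, was at 1.42 and 1.17 log2 CPM in the PEM libraries, against 2.48 and 2.56 in the TCQ libraries, a difference of -1.22 log2 (SE 0.25, adjusted p = 7.9e-04). Both PEM libraries were below both TCQ libraries. STM (Bradi1g57607.1), a KNOX gene needed to form the shoot meristem, was at -1.87 and -1.05 log2 CPM in PEM, against -1.81 and -2.36 in TCQ, where 1 library was at the lowest value that the file lists for this gene. All 4 libraries were under 1 CPM and the stages overlapped (difference 0.63, SE 0.44, adjusted p = 0.25). Its mean level at TRA was 3.94 log2 CPM.

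Both genes of the root quiescent centre were higher at PEM. WOX5 (Bradi2g55270.1), a WUSCHEL-related homeobox gene that keeps root stem cells, was at 6.43 and 6.54 log2 CPM in PEM, against 4.42 and 4.60 in TCQ (difference 1.97, SE 0.30, adjusted p = 6.1e-05). PLT1 (Bradi5g14960.1), an AP2 factor that specifies the root stem cell niche, was at 4.36 and 4.39 log2 CPM in PEM, against 2.68 and 2.49 in TCQ (difference 1.79, SE 0.16, adjusted p = 3.7e-07). For both genes the stages were apart by far more than the replicates.

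Of the 3 ground tissue genes, 2 rose and JKD fell. The zinc finger gene MGP (Bradi2g08460.1), a target and partner of SHR and SCR, was at 7.80 and 7.72 log2 CPM in PEM, against 5.33 and 5.43 in TCQ, a difference of 2.38 log2 (SE 0.27, adjusted p = 4.7e-06). SCR (Bradi4g44093.1), a GRAS factor needed for the formative division of ground tissue, was at 6.59 and 6.43 log2 CPM in PEM, against 5.28 and 5.47 in TCQ. It was 1.13 log2 higher at PEM (SE 0.13, adjusted p = 4.4e-06). JKD (Bradi3g26910.2), a zinc finger factor that restricts SHR movement, was at 0.49 and 1.13 log2 CPM in PEM, against 2.12 and 1.97 in TCQ. Its difference was -1.24 log2 (SE 0.34, adjusted p = 0.0062), and it was not called without PEM replicate 1 (-0.92 log2, adjusted p = 0.079).

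Of the 5 vascular genes, 3 were higher and 2 were not called. TMO5 (Bradi3g38360.1), a bHLH gene of vascular cell divisions, was at 1.52 and 1.45 log2 CPM in PEM, against -0.61 and -0.83 in TCQ (difference 2.21, SE 0.40, adjusted p = 3.1e-04). It was under 1 CPM in both TCQ libraries and above it in both PEM libraries. SHR (Bradi1g23060.1), a GRAS factor that moves outward to the ground tissue, was at 4.70 and 4.59 log2 CPM in PEM, against 3.48 and 3.44 in TCQ (difference 1.18, SE 0.21, adjusted p = 2.3e-04). LOG4 (Bradi2g42190.1), an enzyme that activates cytokinin, was at 6.73 and 6.85 log2 CPM in PEM, against 5.69 and 5.74 in TCQ (difference 1.08, SE 0.30, adjusted p = 0.0074). The cytokinin receptor gene WOL (Bradi3g59820.1) was at 5.98 and 5.99 log2 CPM in PEM, against 5.29 and 5.55 in TCQ. Its libraries did not overlap, but the difference of 0.56 log2 had an adjusted p of 0.051 (SE 0.23), and it was called under 5 other settings. LOG3 (Bradi2g14470.1), of the same enzyme family as LOG4, was near 1 CPM or below it, with -1.37 and -0.14 log2 CPM in PEM, against -0.32 and 0.03 in TCQ. The PEM libraries of LOG3 were far apart and overlapped those of TCQ (difference -0.61, SE 0.35, adjusted p = 0.15). This gene was at 5.38 log2 CPM in EEN and 5.59 in LEN, above its level in any embryo stage.

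The 2 suspensor genes and the 2 auxin transport genes were higher at PEM. WOX9 (Bradi2g16444.1), a homeobox gene of early embryo growth, was at 10.75 and 10.56 log2 CPM in PEM, against 9.51 and 9.38 in TCQ (difference 1.21, SE 0.16, adjusted p = 1.4e-05). It ranked 58 among all genes by mean CPM at PEM and 160 at TCQ. YUC3 (Bradi5g01327.2), an enzyme of auxin synthesis, was at 8.02 and 7.98 CPM in PEM, against 3.42 and 3.19 CPM in TCQ (log2 difference 1.27, SE 0.28, adjusted p = 0.0014). The auxin efflux carrier gene PIN1b (Bradi3g59520.1) was at 5.57 and 5.47 log2 CPM in PEM, against 3.52 and 3.47 in TCQ, a difference of 2.02 log2 (SE 0.17, adjusted p = 3.2e-07). The carrier gene PIN1a (Bradi1g45020.1) was at 5.66 and 5.61 log2 CPM in PEM, against 4.83 and 4.55 in TCQ. The difference of PIN1a, 0.94 log2 (SE 0.29, adjusted p = 0.013), was not called without PEM replicate 1 (0.92 log2, adjusted p = 0.062), without PEM replicate 2 (0.97, adjusted p = 0.050) or without TCQ replicate 2 (0.80, adjusted p = 0.091).

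The same genes went on differently at the transition stage. The difference of TRA minus PEM uses the PEM libraries again, so its values stand here beside those above with no further comparison. KNAT1 was 2.65 log2 higher at TRA than at PEM (SE 0.29, adjusted p = 8.1e-06), FIL 1.88 higher (SE 0.39, adjusted p = 0.0021) and PLT1 1.16 higher (SE 0.16, adjusted p = 6.6e-05). TMO5 had a difference of -3.79 log2 (SE 0.40, adjusted p = 6.9e-06), with 1 TRA library at the lowest value listed for it, which limits the size of this difference. The difference was -2.40 log2 for ZPR3 (SE 0.40, adjusted p = 4.1e-04) and -2.02 for LOG4 (SE 0.30, adjusted p = 1.6e-04). For these 3 genes PEM was the stage with the highest mean of the 7. For SCR and MGP the differences were -0.04 (SE 0.13, adjusted p = 0.87) and 0.09 (SE 0.27, adjusted p = 0.86), within their errors.

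**Figure D3:**
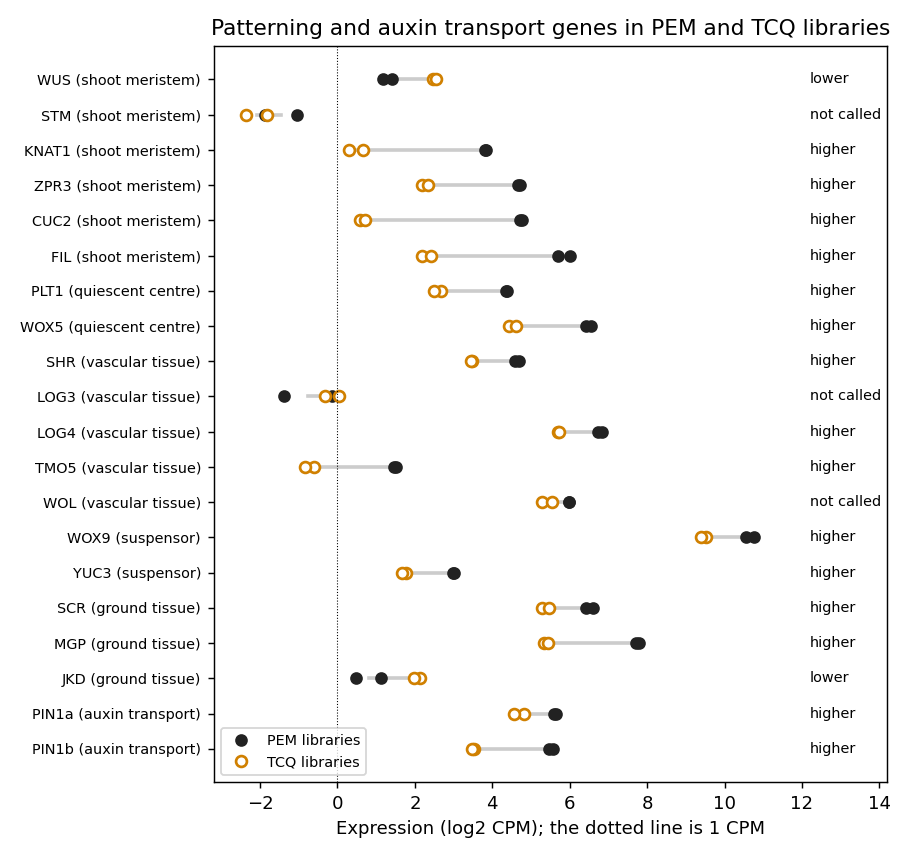
Expression of 20 patterning and auxin transport genes (log2 CPM) in the 2 PEM libraries (filled) and the 2 TCQ libraries (open), with a grey bar between stage means and the call at the right. PEM lies to the right of TCQ in 15 called genes and to the left in WUS and JKD, and STM, LOG3 and WOL were not called.

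Among genes that reached 5 log2 CPM at the higher stage, the largest changes belonged to genes without a name in the sources used here, since these do not pair identifiers with descriptions. Bradi4g03511.1 was at 6.89 and 7.02 log2 CPM in the PEM libraries, against 1.44 and 1.89 in the TCQ libraries, a difference of 5.29 log2 (SE 0.29, adjusted p = 8.4e-09). Bradi5g24650.1 was at 5.36 and 5.12 log2 CPM in PEM, against 0.81 and 0.25 in TCQ (difference 4.71, SE 0.18, adjusted p = 4.9e-10). The later courses of these 2 genes were unlike. Bradi4g03511.1 had a mean of -1.06 log2 CPM at MAT, with both libraries at the lowest value listed for it. Its mean in SEC was 3.01 log2 CPM. Bradi5g24650.1 had a mean of 8.08 log2 CPM at LEM, and was also high in endosperm, with means of 7.49 in EEN and 5.88 in LEN. Bradi1g26790.1 was at 0.95 and 0.86 log2 CPM in PEM, against 6.13 and 5.94 in TCQ (difference -5.13, SE 0.37, adjusted p = 6.8e-08), and was under 1 CPM in all later stage means. Bradi3g46620.1 was at 1.95 and 1.99 log2 CPM in PEM, against 6.22 and 6.07 in TCQ (difference -4.17, SE 0.20, adjusted p = 2.5e-09). It had a mean of 4.03 log2 CPM at MAT. Another 4 genes rose by more than Bradi4g03511.1 and 2 fell by more than Bradi1g26790.1, all without reaching 5 log2 CPM at their higher stage.

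Few genes went between the detection floor and a clear level. The floor of a gene is its lowest value where at least 2 libraries share it, and a gene at its floor may still be transcribed. Of the 22902 genes, 69 were at the floor in both TCQ libraries and above 1 CPM in both PEM libraries, and 46 of these were called. The opposite held for 29 genes, of which 13 were called. Both sets were selected by the values that gave the calls, and over all genes tested 28.7% were called higher and 24.6% lower, so nothing is read from these counts. The levels at the detected stage were low, with a median of 0.65 log2 CPM for the 69 genes and 0.63 for the 29, and with a minimum of 2 log2 CPM in place of 0 these counts were 4 and 2. At PEM 705 genes were at the floor in both libraries, against 1057 at TCQ, and 466 were at it in all 4. No fold is given against a stage at the floor.

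The stage of the highest mean was looked up for the genes that changed. Over the 7 embryo stages, 34.7% of the 6565 risen genes had their highest mean at PEM, and 54.2% of the 5632 fallen genes had theirs at TCQ. Of all 22902 genes tested, 3698 had their highest mean at PEM and 4806 at TCQ. Among changes of at least 2 log2, these shares were 47.6% of 702 and 72.1% of 605. TCQ has a neighbouring stage on one side only, and these shares use the values that also gave the calls, so they are a description with no test. PEM was at least 1 log2 above every other group for 111 risen genes, and TCQ for 438 fallen genes. Against the 6 other embryo stages alone, without endosperm and seed coat, these counts were 226 and 1137. No such count was made for the other groups, so the counts do not rank the stages. In stage order from TCQ through PEM and TRA to MAT, the median levels of the risen genes were 2.88, 3.96, 3.97 and 3.24 log2 CPM. Those of the fallen genes were 4.14, 3.17, 3.05 and 3.57 log2 CPM. Genes that rose by at least 2 log2 had medians of 0.10, 2.78, 2.67 and 0.42 log2 CPM at the same stages, so their median at MAT was close to that at TCQ.

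**Figure D4:**
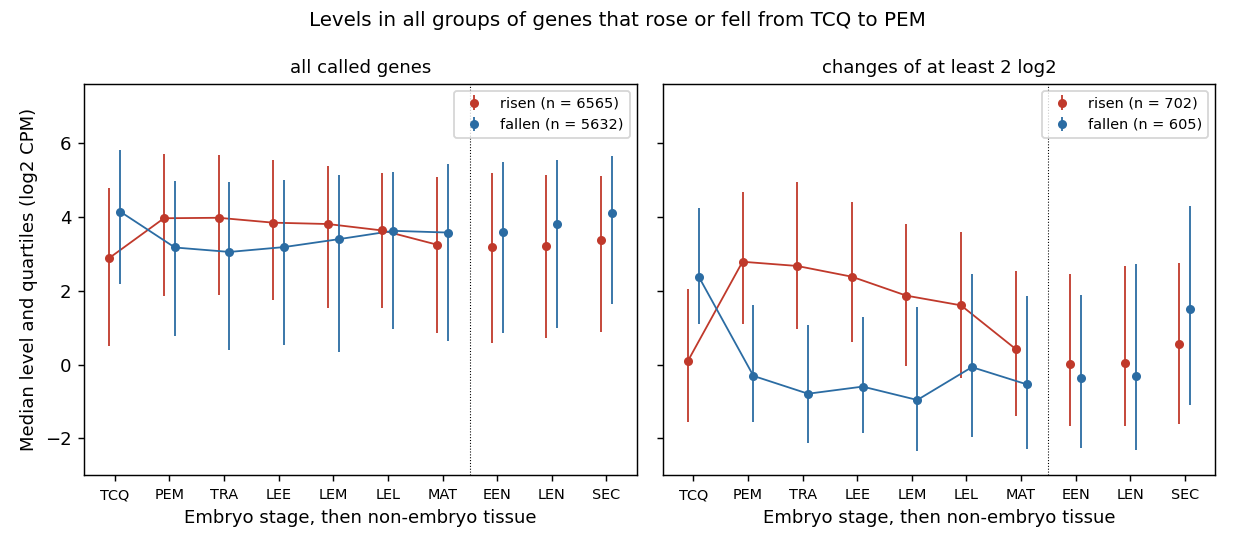
Median level (points) and quartiles (bars) in log2 CPM of genes that rose (red) or fell (blue) between TCQ and PEM, for all called genes (left) and for changes of at least 2 log2 (right), in the 7 embryo stages and then 3 non-embryo tissues. The risen genes stay near their PEM level at TRA, and the genes that fell by at least 2 log2 have a median of 1.49 log2 CPM in SEC, against -0.31 at PEM and 2.37 at TCQ.

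Comparisons that used neither stage followed how the same genes behaved later. From TRA to LEE, 7.91% of the risen genes were called higher and 17.2% lower, against 11.2% and 10.7% of all genes tested. The fallen genes were called higher in 15.7% and lower in 9.32%. From LEE to LEM, 22.4% of the risen genes were higher and 35.2% lower (25.0% and 26.9% of all genes), and from LEM to LEL 12.7% and 27.3% (18.4% and 18.7%). From LEL to MAT, 19.9% of the risen genes were higher and 36.9% lower (24.7% and 27.9%). Fallen genes were higher in 29.7% and lower in 25.8% from LEE to LEM, in 27.6% and 16.1% from LEM to LEL, and in 32.7% and 25.3% from LEL to MAT. In each of these 4 steps the share of the risen genes called lower was above that of all genes, and the share of the fallen genes called lower was below it. For the 605 genes that fell by at least 2 log2 this did not hold from LEE to LEM, where 28.1% were lower, or from LEL to MAT, where 31.4% were. The background of all genes includes the risen genes. Of the 10705 genes not called between TCQ and PEM, 7.49%, 22.4%, 14.9% and 23.6% were lower in the 4 steps. In each step the fallen genes were thus called lower more often than the genes not called.

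The same sets were followed in endosperm and seed coat. In EEN, 21.5% of the risen genes were above TRA and 53.5% below it, against 34.8% and 36.6% of all genes tested, while 48.8% of the fallen genes were above TRA and 26.9% below. In SEC, 32.9% of the risen genes were above LEL and 46.0% below it, against 37.4% and 39.3% of all genes, and the fallen genes were above it in 46.0% and below in 33.3%. Between LEN and EEN, 29.2% of the risen genes were higher in LEN and 33.1% lower (31.3% and 30.9% of all genes), the closest to the background of these comparisons. These shares were not tested, as genes are not independent replicates. The comparisons of EEN with TRA and of SEC with LEL were added after the data were seen.

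**Figure D5:**
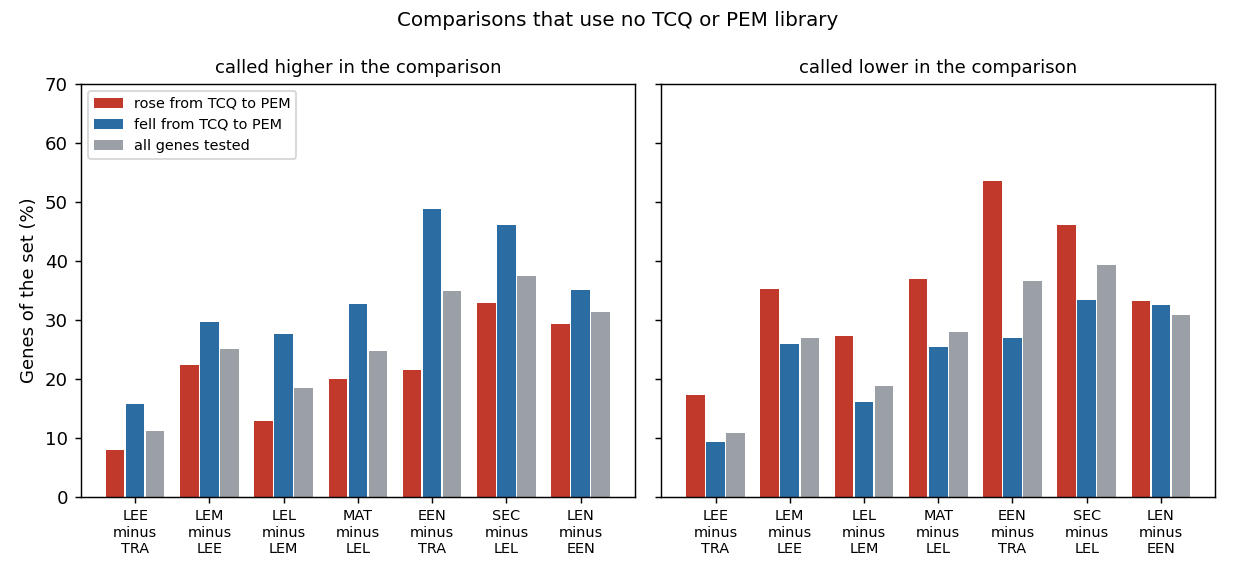
Percentage of genes called higher (left) and lower (right) in 7 comparisons that use no PEM or TCQ library, for genes that rose (red) or fell (blue) between TCQ and PEM and for all genes tested (grey). In EEN minus TRA, 53.5% of the risen and 26.9% of the fallen genes were lower, against 36.6% of all genes.

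Genes high in other tissues of the grain were followed in the same libraries, since embryos of these stages were dissected out of the surrounding tissues. For each tissue these were genes of at least 6 log2 CPM there and at least 6 log2 above every stage from TRA to MAT. The 162 SEC-high genes included 20 called higher at PEM (12.3%) and 50 lower (30.9%), beside 28.7% and 24.6% of all genes tested. Their summed CPM was 1543 and 1502 in the PEM libraries, against 2303 and 2225 in the TCQ libraries, which was 1.11% and 1.08% of their sum in SEC at PEM and 1.65% and 1.59% at TCQ. The median difference was -0.19 log2, -0.28 with a gap of 4 log2 in place of 6, and -0.0030 with a minimum of 8 log2 CPM in SEC. With the gap of 4 log2, 12.3% of the genes were called higher and 38.1% lower. With the minimum of 8 log2 CPM, 14.3% were called higher and 24.2% lower. Of the 72 EEN-high genes, 7 were called higher (9.72%) and 8 lower (11.1%). Their sums were 67.1 and 71.5 CPM in PEM, against 82.3 and 84.1 in TCQ. Of the 89 LEN-high genes, 14 were called higher (15.7%) and 11 lower (12.4%). Their sums were 259 and 266 CPM in PEM, against 755 and 709 in TCQ. In each PEM and TCQ library, 56 to 61 of the EEN-high genes and 66 to 71 of the LEN-high genes were under 1 CPM. Few calls in these lists are therefore not a sign of no change. The 3 highest genes made up 75.1% and 73.5% of the LEN-high sum in PEM, and 91.1% and 89.4% in TCQ. The part of seed coat or endosperm RNA in the genes that fell was not tested. With the genes of such lists left out at a gap of 4 log2, 22350 genes remained in the count, of which 6490 were higher and 5455 lower. The lists held only 552 genes, so these totals could change little and do not measure such RNA in the other genes. Of the genes that fell by at least 2 log2, 56.2% were above LEL in SEC and 22.3% below it. Those that rose by at least 2 log2 were above it in 28.5% and below in 46.7%, against 37.4% and 39.3% of all genes tested.

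Higher and lower genes were found in similar shares on each chromosome. On chromosomes 1 to 5, as numbered in the identifiers, 28.1% to 29.1% of the genes were called higher and 23.8% to 25.3% lower. Of the genes called higher, 30.8% were followed by a gene also called higher in the order of the identifiers, against 28.7% of all genes, and of those called lower 27.1% by a lower one, against 24.6%. The longest runs held 7 higher and 6 lower genes.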

How the data were processed

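Total RNA of dissected *Brachypodium* embryos, endosperm and seed coat was amplified to antisense RNA and sequenced by the authors, with 4 libraries in a lane. Per the labels, CASAVA and Trimmomatic were used on the reads, and Salmon quantified them on gene models of Bd21. The authors deposited log2 CPM values, normalized by them with edgeR, for 23749 genes in 20 libraries. All columns of libraries were matched to a sample by name. Salmon shares reads between similar gene models, so near-identical genes could not be told apart with certainty.

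The deposited log2 CPM values were tested with limma 3.58.1 in R 4.3.3 (10 group means, 20 libraries, variance moderation with a trend, 10 residual and 4.82 prior degrees of freedom), as a count test needs counts. The filter left out 847 genes. Adjusted p-values are those of limma after Benjamini-Hochberg adjustment. The libraries are biological replicates of pooled embryos, and nothing says whether pools came from separate plantings, so p-values measure only the spread between these libraries. Floor values were matched within 1e-06. The procedure was run on simulated data with few changed genes, none of a low mean level. In the real data most genes tested were called, so that run does not bear on these calls.

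The members and lists were chosen with earlier results of these data known. Named genes are 18 patterning genes and 2 PIN genes that the study labels with identifiers, plus, per direction, the 2 identifiers with the largest change among called genes that reach 5 log2 CPM in the higher stage and whose libraries do not overlap. The identifiers of LOG3, TMO5, PIN1a and PIN1b were read from labels in a picture of the study. None of the identifiers (0) was found among 31335 reference genes, and the lists planned from descriptions (such as ribosomal protein, histone or storage protein genes) were not made and no sequence is shown. Alternatives were other scalings, filters, libraries in the fit, log2(CPM + 1), no variance trend, a replicate block, leaving out each replicate and stricter thresholds. The scaling of antilogs to equal sums, the comparisons of EEN with TRA and SEC with LEL, and the count outside the tissue lists were added after the data were seen.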

Additional observations from a re-analysis of the deposited data

How the results depend on the processing

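The counts of 6565 higher and 5632 lower genes stayed within 1.5 times under all other fits, scalings, filters and single libraries left out, with 5300 to 5574 higher and 4529 to 4740 lower genes without 1 of the 4 libraries. A minimum change of 1 log2 gave 3362 and 2545 genes, of which 56.9% were higher at PEM, against 53.8%. That share was on the other side of 50% with library medians set equal (49.4%), quantile normalization (49.1%) and antilogs scaled to equal sums (44.8%), and was 53.2% to 54.5% with 1 library left out. With detection above 2 log2 CPM in place of 0, 4 genes in place of 69 were at the floor at TCQ only, and 2 in place of 29 at PEM only. The median difference of SEC-high genes was -0.0030 log2 with a minimum of 8 log2 CPM in SEC and -0.28 with a gap of 4 log2, against -0.19.

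Of 24 named genes, 20 kept their direction and call under every alternative run for them. LOG3 had a difference of 0.0013 log2 without PEM replicate 1 (adjusted p = 1.00 from limma) and -1.23 log2 without PEM replicate 2 (adjusted p = 0.0096). WOL was called with only the 4 libraries (adjusted p = 0.00092), with the 14 embryo libraries (0.0060), with the filter on the 4 libraries (0.047), with log2(CPM + 1) (0.035) and with the replicate block (0.028), over a range of 0.00092 to 0.24. The changes of JKD and PIN1a that lost their call stand with these genes, with adjusted p over all alternatives from 8.9e-06 to 0.079 for JKD and 6.5e-05 to 0.091 for PIN1a. The causes were not tested.

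PEM and TCQ libraries share replicate numbers, but no source says that a number marks a shared origin. Deviations of same-numbered libraries correlated across genes with r = 0.089 between PEM and TCQ, and with -0.13 to 0.55 over all pairs of groups, so the numbers were not taken as a pairing although some groups deviated together. With the replicate block, 6704 genes were higher and 5746 lower, 53.8% of them higher, and WOL was the only named gene whose call changed.

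Depth per library is unknown, so genes near the floor carry no counting error of their own. The spread of a stage rests on 2 libraries.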
